A study of Mus musculus with 4 samples.

Results

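Mismatch repair genes were described in mouse bone marrow cells that differed in Tet2 and in exposure to a JAK inhibitor. The 6 genes, taken by symbol from the deposited expression table, were the MutS homologs Msh3 and Msh6, the MutL homologs Mlh3, Pms1 and Pms2, and the exonuclease Exo1. They are 6 of 24340 genes in the table, and all 6 were among the 10471 genes whose mean over the libraries was 1 FPKM or more (FPKM being fragments per kilobase of transcript, scaled to the fragments of the library). The study, whose title speaks of TET2 and DNMT3A mutations, DNA repair and PARP inhibitors, provided 4 libraries of C57BL/6 bone marrow cells gated as lineage-negative and Kit-positive, each from 5000000 cells. All 4 carried JAK2V617F, an activated form of the kinase Jak2, per the sample labels. The design text of the series instead names Flt3ITD, beside Dnmt3a and Tet2, and no JAK2V617F; the genotypes given here are those of the labels, and which text holds was not tested. They were JAK2V617F;Tet2+/+ control, JAK2V617F;Tet2+/+ with ruxolitinib, JAK2V617F;Tet2-/- control and JAK2V617F;Tet2-/- with ruxolitinib, called wild type and knockout here. Ruxolitinib inhibits JAK1 and JAK2; its dose and time, the age and number of animals, and the Cre and promoter behind the Tet2 deletion are not stated in the labels. Each group had 1 library, so no difference below has a replicate check and no p-value was computed from it.

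Mismatch repair removes wrong bases and small loops that escape proofreading when DNA is copied. A MutS heterodimer finds the fault, and Msh6 and Msh3 are alternative subunits of it: the Msh6 form recognises base mismatches and very short loops, the Msh3 form favours longer loops. A MutL heterodimer then joins; Pms2, Pms1 and Mlh3 are its alternative subunits, of which Pms2 gives the nicking activity of the main form and Mlh3 is best known from meiosis. Exo1 chews back the nicked strand, and the gap is refilled with the clamp Pcna, its loader, the single-strand binding protein, polymerase delta and a ligase. In dividing blood progenitors the pathway guards the genome against replication errors.

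The checks on the libraries were as follows. Tet2 was at 4.69 FPKM without and 5.05 with ruxolitinib in wild type, and at 3.62 without and 4.39 with it in knockout, a whole-gene value that does not see a deleted exon and so checks nothing. Xist was at most 0.0309 FPKM in wild type and at least 53.2 in knockout, so sex and genotype cannot be told apart. Of 8 mast cell markers, 7 reached 1 FPKM and Cpa3 was listed at 0 in every library; their summed level was 25983 FPKM without and 29719 with drug in wild type, and 17977 without and 21793 with it in knockout. Of 6 stem and progenitor markers, 4 reached 1 FPKM in at least 1 library: Cd34, at 306.8 to 464.6 FPKM, Meis1, Mecom and Hlf. Flt3, from the same list, was listed at 0 throughout. No neutrophil, B cell, T cell or NK cell marker reached 1 FPKM, and Mpo, a marker of granulocyte progenitors, did not exceed 1.31. The 6 granulocyte and monocyte markers summed to 90.8 and 108.5 FPKM in the wild-type and 29.2 and 29.6 in the knockout libraries, nearly all of it Ctsg. The 4 megakaryocyte markers summed to 665.0 and 743.3 FPKM in the wild-type and 442.9 and 530.2 in the knockout libraries, nearly all of it Itga2b. The summed levels of the erythroid and of the stem and progenitor list did not split by genotype. Among their genes that reached 1 FPKM, Epor, Meis1 and Mecom were lower in both knockout libraries and Hbb-bt was higher in both. Gata1, Cd34 and Hlf did not split. Of 4 stromal markers only Pdgfrb reached 1 FPKM, in the knockout libraries, at 1.86 and 2.21. In bulk RNA, fewer cells of a type and less RNA per cell cannot be told apart, and the part of these shifts in the results was not tested. Steps between the lowest values pointed to between 44.2 and 54.6 fragments for each FPKM on 1 kilobase, which was used for approximate counting intervals.

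The 6 genes were expressed at low to middling levels, with Msh6 the most abundant in every library. Msh6 (chromosome 17, 87975062 to 87990892, plus strand, mm10) was at 12.6 FPKM without and 15.9 with ruxolitinib in wild type, and 21.1 without and 21.8 with it in knockout. Both knockout libraries were above both wild-type libraries, and the wild-type control was the lowest. Of the 10471 measured genes, 44.6% had a higher mean than Msh6. The other recognition subunit, Msh3 (chromosome 13, 92211872 to 92355003, minus strand), was at 4.95 FPKM without and 5.10 with ruxolitinib in wild type, and 6.46 without and 6.71 with it in knockout. The Msh3 values again split by genotype, with little difference between drug and control.

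Among the MutL homologs, Pms2 (chromosome 5, 143909964 to 143933968, plus strand) was at 8.61 FPKM without and 10.2 with ruxolitinib in wild type, and 10.6 without and 11.1 with it in knockout. The wild-type control stood below the other 3, which lay close together. Pms1 (chromosome 1, 53189187 to 53297018, minus strand) was at 4.29 FPKM without and 5.06 with ruxolitinib in wild type, and 5.90 without and 5.51 with it in knockout. Here the highest library was the knockout control. Mlh3 (chromosome 12, 85234520 to 85270599, minus strand) was at 2.97 FPKM without and 3.56 with ruxolitinib in wild type, and 3.05 without and 3.59 with it in knockout. Mlh3 was the exception to the split by genotype: its 2 ruxolitinib libraries were the higher ones and its 2 control libraries the lower ones. Exo1 (chromosome 1, 175880581 to 175913489, plus strand) was at 2.87 FPKM without and 3.36 with ruxolitinib in wild type, and 5.26 without and 4.90 with it in knockout. Both knockout libraries were above both wild-type ones. The wild-type control library held the lowest value of all 6 genes.

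**Figure D1:**
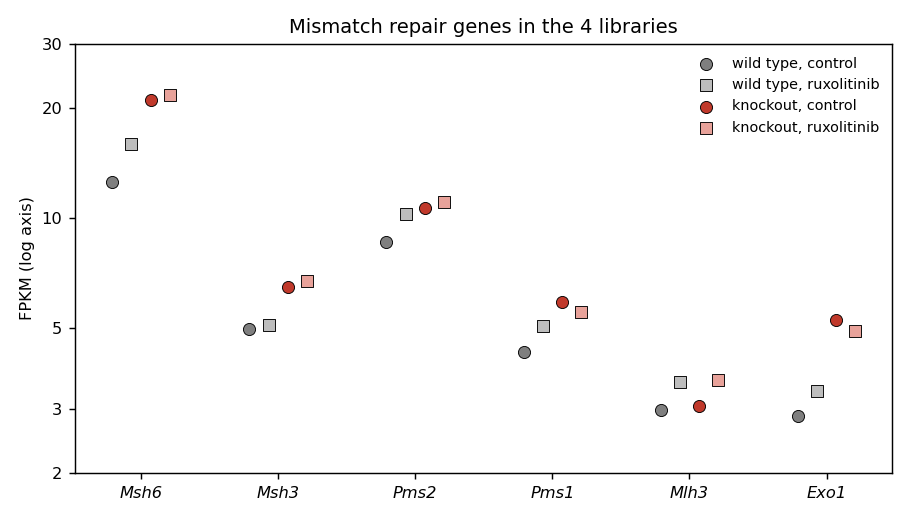
FPKM (log axis) of the 6 mismatch repair genes in the 4 libraries, 1 point per library. Msh6 runs from 12.6 to 21.8 FPKM, and only Mlh3 has a knockout library (3.05) below a wild-type library (3.56).

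The order of levels per length was Msh6, Pms2, Msh3, Pms1 in every library. The last 2 places changed: Mlh3 was above Exo1 in both wild-type libraries and below it in both knockout libraries. The highest gene exceeded the lowest by 4.39-fold in the wild-type control and by 6.92-fold in the knockout control library.

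Without drug, Exo1 and Msh6 were the mismatch repair genes that differed most between knockout and wild type, and Mlh3 was level. Exo1 was 1.84-fold higher in the knockout library, with a 95% interval of 1.61 to 2.09 that covers counting error only. Msh6 was 1.68-fold higher, with an interval of 1.60 to 1.76. On the scale of log2(FPKM + 1), which understates changes of low genes, the ratios were 0.70 for Msh6 and 0.70 for Exo1; 2.46% and 2.48% of measured genes had a higher ratio. These 2 of 6 genes passed 1.5-fold in the upward direction, which 3.88% of measured genes did, and 0 passed it downward, against 5.06%.

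The other members followed at smaller ratios. Pms1 was 1.38-fold higher (counting interval 1.24 to 1.53), Msh3 1.31-fold (1.19 to 1.43) and Pms2 1.23-fold (1.14 to 1.34). Mlh3 was at 1.03-fold, with an interval of 0.919 to 1.15 that includes no difference. The median log2 ratio of the 6 genes was 0.36, beside 0.00 over all measured genes. The authors' deposited table, whose test sets 1 library against another and not the genotypes, gave q-values of 0.000746 for Exo1, 0.00307 for Msh6 and 0.0320 for Pms1. Those 3 genes were called at the authors' threshold in that table, where 9.37% of the genes tested were called higher and 9.68% lower. The same table gave 0.154 for Pms2, 0.358 for Msh3 and 0.937 for Mlh3.

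With ruxolitinib in both libraries, every member was again above the wild-type level, and all but Msh3 by less than without drug. Exo1 was 1.46-fold higher (counting interval 1.29 to 1.65), Msh6 1.37-fold (1.31 to 1.43) and Msh3 1.31-fold (1.20 to 1.44). Pms1 was at 1.09-fold (0.983 to 1.21) and Mlh3 at 1.01-fold (0.912 to 1.12), with intervals that include no difference. Pms2 was at 1.08-fold, with an interval of 1.003 to 1.17 that narrowly excludes it. None of the 6 reached 1.5-fold, which 2.97% of measured genes did upward and 3.34% downward, and the median log2 ratio was 0.22 beside 0.00 over all genes. Only Exo1 among the 6 was called in the authors' deposited table, with a q-value of 0.00307, against 7.39% of tested genes called higher and 6.21% lower; Msh6 was at 0.0774. The Msh3 ratio was the same size with and without drug, at log2 values of 0.34 and 0.33, whereas the Pms1 ratio was 0.10 with drug and 0.38 without. No test of the difference between those ratios was possible with 1 library per group.

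These genotype ratios depend on how the libraries are scaled. Rescaling each library to the same sum (TPM) moved the median log2 ratio of all measured genes by 0.14 without drug and 0.13 with drug. Calls at 1.5-fold then went from 406 higher and 530 lower to 846 and 423 without drug, and from 311 and 350 to 616 and 294 with drug. The median of the 6 genes became 0.52 where that of all genes was 0.15, and 0.36 where that of all genes was 0.13.

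**Figure D2:**
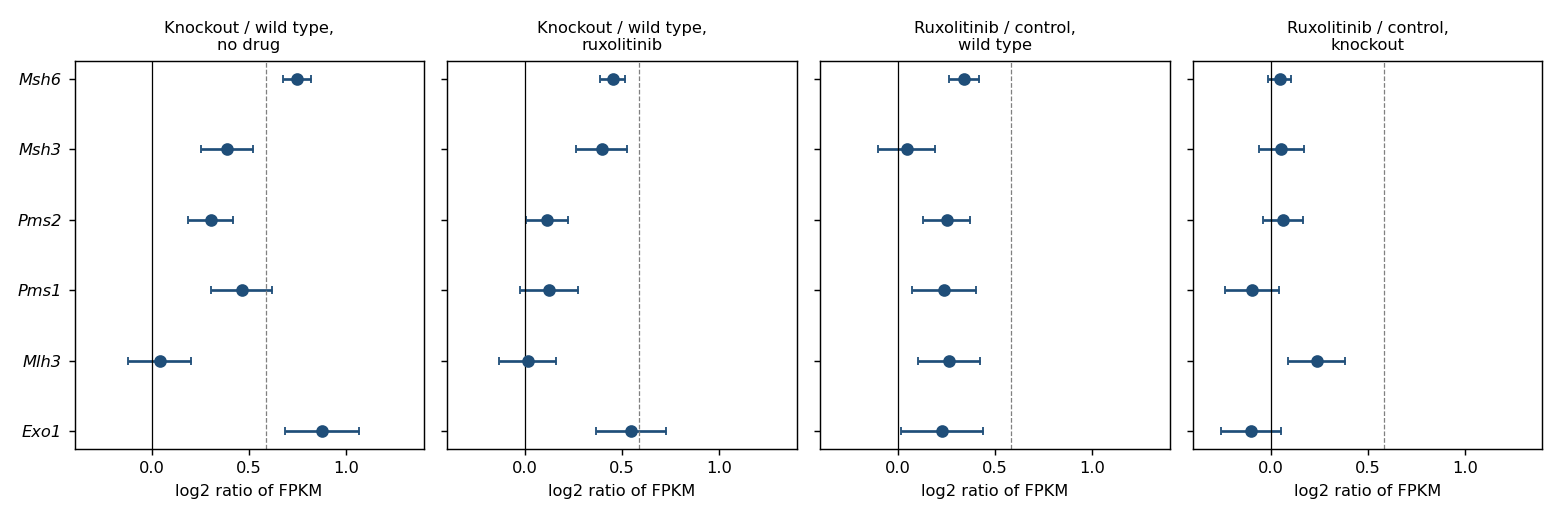
Log2 ratios of FPKM without a pseudocount for the 6 genes in 4 comparisons, with bars for 95% counting intervals from estimated fragments and a dashed line at 1.5-fold. Exo1 and Msh6 lie farthest right for knockout against wild type without drug, while Mlh3 lies at 1.03-fold.

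Ruxolitinib in wild-type cells went with slightly higher levels of all 6 genes. Msh6 was 1.27-fold higher (counting interval 1.20 to 1.34), Mlh3 1.20-fold (1.07 to 1.34) and Pms2 1.19-fold (1.09 to 1.29). Pms1 was at 1.18-fold, Exo1 at 1.17-fold and Msh3 at 1.03-fold, the last with an interval of 0.932 to 1.14 that includes no difference. The median log2 ratio was 0.20, beside 0.01 over all measured genes, of which 51.9% had a positive ratio. None of the 6 passed 1.5-fold, which 1.05% of measured genes did upward and 2.64% downward. The authors' deposited table called 0 of the 6 in this comparison, with 2.39% of tested genes called higher and 4.13% lower; their q-values there lay between 0.282 and 0.955.

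In knockout cells, the drug and control libraries were closer together. Mlh3 was 1.18-fold higher with ruxolitinib (counting interval 1.06 to 1.30), close to its ratio in wild type. Msh3, Msh6 and Pms2 were at 1.04-fold, 1.03-fold and 1.04-fold, and Exo1 and Pms1 at 0.930-fold and 0.934-fold, each with an interval that includes no difference. The median log2 ratio was 0.04, beside 0.00 over all genes; 0 of 6 genes passed 1.5-fold in either direction, against 1.67% upward and 2.20% downward. The authors' deposited table called 0 of the 6, against 4.85% of tested genes called higher and 4.73% lower. The drug ratios of Exo1 and Pms1 had opposite signs in the genotypes, 2 of 6 genes, against 22.9% of measured genes. The comparisons of this and the preceding paragraphs share libraries, in particular the wild-type control, so their ratios are not independent of each other.

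Ratios within a library do not depend on library scaling. The level of Msh6 relative to Msh3, the 2 alternative recognition subunits, was 2.54 in the wild-type control library, with a counting interval of 2.34 to 2.76. It was 3.12 in the ruxolitinib library of wild type, and 3.27 without and 3.25 with drug in knockout. The wild-type control interval did not overlap that of any other library, the lowest bound among those being 2.89, and the other 3 intervals overlapped each other.

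For the MutL subunits, the level of Pms2 relative to Mlh3 was 2.90 and 2.88 in wild type without and with drug, and 3.48 and 3.08 in knockout. Here the knockout control library stood highest, with a counting interval of 3.19 to 3.81 and the same limit. This interval overlapped those of the wild-type control and knockout ruxolitinib libraries but not that of the wild-type ruxolitinib library. The level of Pms2 relative to Pms1 lay between 1.80 and 2.03, with overlapping intervals in all 4 libraries.

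**Figure D3:**
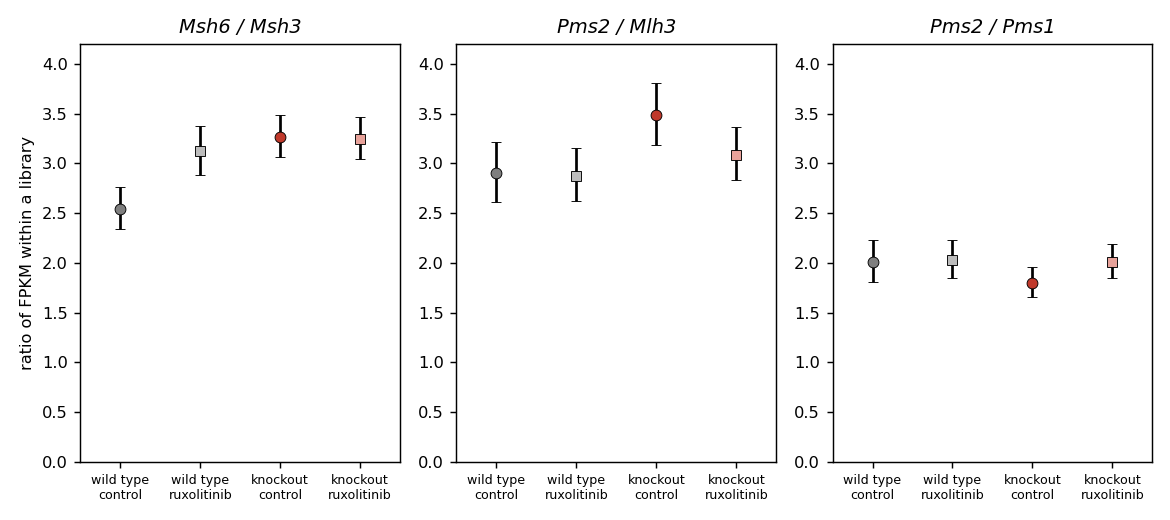
Ratio of FPKM between alternative subunits within each library, with 95% counting intervals. Msh6 relative to Msh3 is 2.54 in the wild-type control and between 3.12 and 3.27 in the other 3 libraries, while Pms2 relative to Pms1 stays between 1.80 and 2.03.

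Pms1 and Pms2 each start next to another gene that runs the opposite way, within 300 bases; 12.7% of 9600 measured protein-coding genes have such a start in the GENCODE M21 annotation. Pms1 is paired with Ormdl1, a regulator of sphingolipid synthesis, with 77 bases between the starts. Pms2 is paired with Aimp2, a scaffold of the tRNA synthetase complex, with 117 bases between the starts. At the other end, the annotated 3′ ends of Msh6 and Fbxo11 overlap by 34 bases, and whether the counting used strand is not stated, so reads in that stretch cannot be assigned with certainty. Fbxo11 lay between 14.8 and 16.6 FPKM in the 4 libraries and did not split by genotype.

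Sequence between the paired starts is shown because each holds CCAAT boxes in both directions (CCAAT or its complement ATTGG, in capitals), a motif found on either strand in 34.5% of 27025 promoter windows of 250 bases. The Pms2 stretch also has GC boxes (GGGCGG or its complement, in capitals), present in 32.9% of windows. Sequences are those of RefSeq on GRCm38.p6 (the same coordinates as mm10), read 5′ to 3′ toward the named gene, and 5 of the 6 genes had an entry. The Pms1 stretch stops short of the annotated Pms1 start at 53297018 and leaves out the bases between. It is chr1:53297029-53297094 on the minus strand and the Pms2 stretch chr5:143909848-143909963 on the plus strand.
Pms1: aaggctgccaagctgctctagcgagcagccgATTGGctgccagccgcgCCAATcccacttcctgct
Pms2: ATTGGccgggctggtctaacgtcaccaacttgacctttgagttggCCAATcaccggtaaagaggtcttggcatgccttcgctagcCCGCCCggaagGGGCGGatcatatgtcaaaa

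The paired genes did not move as pairs in every comparison. Ormdl1 was at 20.4 FPKM without and 22.0 with ruxolitinib in wild type, and 19.4 without and 20.7 with it in knockout, with a knockout log2 ratio of -0.07 without drug where Pms1 had 0.38. Aimp2 was at 31.2 FPKM without and 25.3 with ruxolitinib in wild type, and 38.0 without and 29.7 with it in knockout. The ruxolitinib libraries were the low ones for Aimp2, with log2 ratios of -0.29 in wild type and -0.34 in knockout, where Pms2 had 0.23 and 0.06. For knockout without drug Aimp2 was at 0.28 and Pms2 at 0.27, close to each other.

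**Figure D4:**
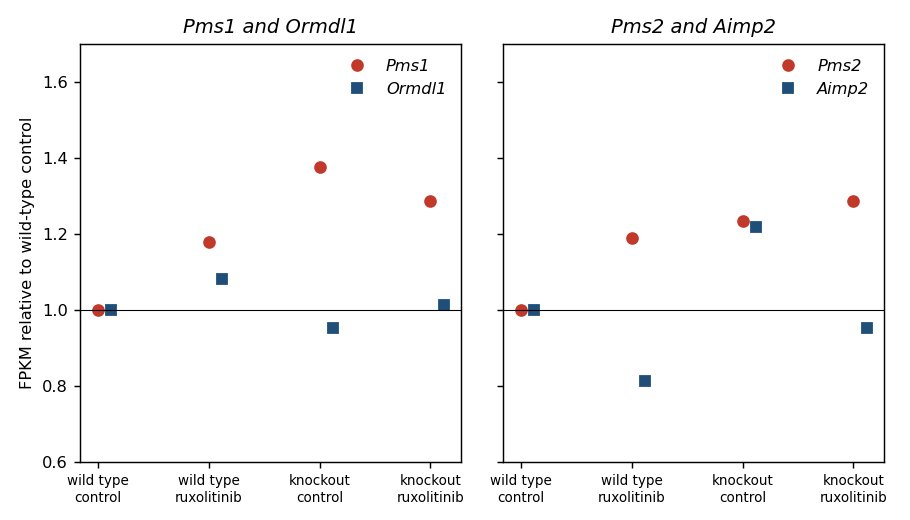
FPKM relative to the wild-type control library for Pms1 and Pms2 (circles) and the genes that start beside them in the opposite direction (squares). Pms1 is 1.38-fold in the knockout control where Ormdl1 is slightly below 1, and Aimp2 is below 1 in both ruxolitinib libraries where Pms2 is above 1.

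The windows of Msh6 and Mlh3 are shown whole because these genes had the largest and the smallest log2 ratio of FPKM + 1 for knockout without drug among the 5 genes with a promoter entry, which leave out Exo1. The Msh6 window (chr17:87974800-87975049, plus strand) had 70.8% G and C and held 5 GC boxes and 1 CCAAT box. The Mlh3 window (chr12:85270600-85270849, minus strand) had 48.8% G and C and held 1 CCAAT box and 0 GC boxes, beside a median of 52.0% G and C over all windows. The other members with an entry had between 56.8% and 66.8% G and C. Whether G and C content is linked to the knockout ratios was not tested. None of the 5 held a CHR word (TTTGAA on either strand, in 16.3% of windows), which says only that these letters are not in these windows. E2F words (TTTCCCGC, TTTGGCGC, TTTCGCGC or TTTGCCGC on either strand) were in 1.91% of windows. Msh3 held 2 of them, and Msh6, Mlh3, Pms1 and Pms2 held 0. Whether such words bear on the levels was not tested. Matches are in capitals, and adjacent GC boxes overlap or run together.
Msh6: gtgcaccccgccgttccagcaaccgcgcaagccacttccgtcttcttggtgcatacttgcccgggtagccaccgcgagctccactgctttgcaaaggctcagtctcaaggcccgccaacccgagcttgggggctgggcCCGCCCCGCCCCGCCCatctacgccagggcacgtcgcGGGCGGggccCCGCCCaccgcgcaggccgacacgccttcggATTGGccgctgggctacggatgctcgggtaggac
Mlh3: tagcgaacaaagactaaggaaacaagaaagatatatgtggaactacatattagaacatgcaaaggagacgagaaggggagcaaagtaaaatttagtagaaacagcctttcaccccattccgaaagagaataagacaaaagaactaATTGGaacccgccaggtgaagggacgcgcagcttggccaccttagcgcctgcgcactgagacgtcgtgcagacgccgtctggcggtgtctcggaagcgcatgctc

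The factors that act after the MutS and MutL proteins were mostly higher in the knockout as well. Of 15 downstream genes, 6 were at least 1.5-fold higher in the knockout without drug, against 3.88% of measured genes. None was lower by as much, against 5.06%, and the median log2 ratio of the 15 was 0.53. Those 6 were the polymerase delta subunit Pold2 at 0.74, DNA ligase Lig1 at 0.73, the clamp loader subunits Rfc4 at 0.70, Rfc3 at 0.66 and Rfc5 at 0.59, and the single-strand binding subunit Rpa2 at 0.67. The clamp Pcna had a level of 104.1 FPKM in the untreated wild-type and 151.0 in the untreated knockout library, a log2 ratio of 0.53. Exceptions were Rfc2 at -0.20, Pold4 at -0.28 and the chromatin protein Hmgb1 at -0.55. Rfc2 was at 198.9 to 283.5 FPKM, where Rfc1, Rfc3, Rfc4 and Rfc5 lay between 18.0 and 40.5, and Hmgb1 was at 3.14 to 6.01. Whether reads were assigned to the right gene for Rfc2 and Hmgb1 was not tested. With drug, 3 of the 15 passed 1.5-fold upward, Pold2 at 0.65, Lig1 at 0.61 and Rfc3 at 0.59, and Hmgb1 passed it downward at -0.64. Among measured genes, 2.97% passed upward and 3.34% downward there. For ruxolitinib, 0 of the 15 passed in either genotype, with medians of 0.19 in wild type and 0.05 in knockout. Among measured genes, 1.05% passed upward and 2.64% downward in wild type, and 1.67% and 2.20% in knockout.

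Nucleases beside Exo1 varied. Of 7 such genes, 2 were at least 1.5-fold higher in the knockout without drug: Dna2, which trims flaps and resected ends, at a log2 ratio of 0.87, and the flap endonuclease Fen1 at 0.63. Among measured genes, 3.88% passed the same rule. Dna2 and Fen1 are also in the DNA replication list below, so the lists are not separate. Fan1, a nuclease that binds MutL proteins, was at 2.59 FPKM without and 3.28 with ruxolitinib in wild type, and 2.57 without and 3.20 with it in knockout. Its levels were higher in the 2 ruxolitinib libraries, as those of Mlh3 were. The meiotic MutS homolog Msh5 was between 2.14 and 2.58 FPKM, and its meiotic partner Msh4 did not exceed 0.0273.

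The median ratio of the members lay below that of the DNA replication list, though some members lay within the range of its genes. Without drug these were Msh6, Exo1 and, at the lower end, Pms1. With drug they were Msh6, Exo1 and Msh3. Of that list, 25 of 27 genes were at least 1.5-fold higher in the knockout without drug, with a median log2 ratio of 0.76, and 16 of 27 with drug, with a median of 0.61. The mitosis list had medians of 0.45 and 0.40, with 4 and 0 of 20 genes past 1.5-fold. Over all measured genes, 3.88% were at least 1.5-fold higher without drug and 2.97% with drug. For ruxolitinib, 0 genes of either list passed, with medians of 0.17 and 0.04 in wild type for replication and mitosis. The shares of measured genes that passed were 1.05% upward and 2.64% downward in wild type, and 1.67% and 2.20% in knockout. Whether the mismatch repair differences come with the share of cells in S phase was not tested. A level per 1000 FPKM of the summed replication list, computed after seeing these medians, was 16.0 for Msh6 without and 17.9 with ruxolitinib in wild type, and 15.8 without and 16.1 with it in knockout. For Exo1 it was 3.66 and 3.78 in wild type and 3.95 and 3.63 in knockout, without and with drug. The summed list itself rose from 784 FPKM (wild-type control library) to 1333 (knockout control library), and from 887 to 1348 between the ruxolitinib libraries. Dividing by it must lower any gene whose knockout ratio is smaller than that of the sum. The scaled values therefore restate the ratios above and are no separate test. On that scale neither Msh6 nor Exo1 split by genotype. The other 4 genes were lower in both knockout libraries, with Pms2 at 11.0 and 11.5 in wild type and 7.97 and 8.22 in knockout, and Mlh3 at 3.79 and 4.01 against 2.29 and 2.67.

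**Figure D5:**
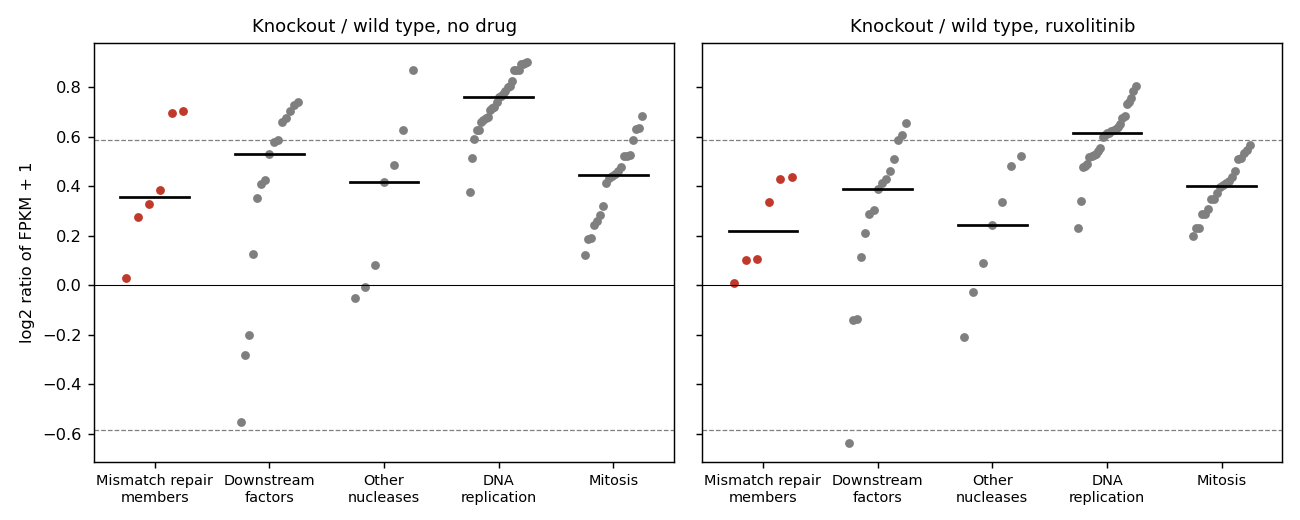
Log2 ratios of FPKM + 1 for knockout against wild type without drug (left) and with ruxolitinib (right), 1 point per measured gene, bars at the medians and dashed lines at 1.5-fold. The mismatch repair genes have medians of 0.36 and 0.22, below those of the replication list at 0.76 and 0.61.

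The protein-coding genes whose pattern over the 4 libraries was closest to each member were found by the largest difference of centred log2(FPKM + 1) in any library. With only 4 libraries, many genes come close by this measure. For Exo1 the nearest were the clamp loader subunit Rfc4, at most 0.020 apart, the sister chromatid cohesion factor Cdca5, at 0.027, and Gemin6, at 0.042. For Msh6 they were Nsl1, a kinetochore component, at 0.024, the checkpoint protein Kntc1, at 0.032, and Mtfr2, at 0.041. Msh3 was nearest to Pkig, Lin54 and Ddx11, a helicase of sister chromatid cohesion, at 0.012 to 0.016. Pms2 was nearest to the tyrosyl-DNA phosphodiesterase Tdp1, at 0.015, then Gtf2a2 and Prps2. Pms1 was nearest to Zfp692, Cdkn3 and Icam4 and Mlh3 to Mthfsl, Ncoa7 and Zfp518a, at most 0.034 apart.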

How the data were processed

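RNA was depleted of its ribosomal part before sequencing, per the labels' protocols. The submitters' processing notes name STAR, Cuffdiff and the build mm10, while for versions, annotation and any scaling between libraries nothing is given in the sources used here. For 24340 genes in 4 libraries the authors deposited FPKM, and a table of 6 library pairs, of which 4 were used. That deposited table holds log2 fold changes without a pseudocount, p-values and q-values, and a test statistic, which is a score; its statistic, p-values and repeated FPKM were left aside.

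Libraries were assigned by title. Ratios were taken on log2(FPKM + 1) over the 10471 genes averaging 1 FPKM or more, and a 1.5-fold rule was applied. Members and lists were chosen with earlier results of these data known. Named genes were the members, list genes past 1.5-fold, the gene starting nearest to each member (Fbxo11, Acyp1 and Wdr64 for Msh6, Mlh3 and Exo1) and the 3 genes nearest in pattern; other list genes named in the text were picked after their values were seen. A gene that the lists and this rule take in is not reported here.

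Fragments were estimated from steps between low values of genes with 1 annotated transcript over 1500 bases; of values set aside, 76.1% to 79.3% lay within 0.15 of a whole multiple. Coding lengths (GENCODE M21) were used for the members, which makes intervals wide rather than narrow; intervals cover counting error only. The ratio step was tested on simulated data. Alternatives were other pseudocounts, filters, scalings and folds, and the authors' fold changes. Python 3.11.15, numpy 2.4.6, pandas 2.3.3 and matplotlib 3.10.9 were used.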

Additional observations from a re-analysis of the deposited data

Results flagged for a closer look

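For 2 of the 6 genes the ruxolitinib library was above its control in wild type and below it in knockout. Pms1 had log2 ratios of FPKM + 1 of 0.20 in wild type and -0.084 in knockout, and Exo1 had 0.17 and -0.087. Msh6 kept its sign, at 0.32 and 0.043. Its knockout minus wild-type difference of -0.27 was close to those of Pms1, at -0.28, and Exo1, at -0.26. These differences were not tested, since each group had 1 library, and 22.9% of measured genes had ratios of opposite sign in the genotypes. In knockout cells the counting intervals of Pms1, Exo1 and Msh6 each included no difference.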

How the results depend on the processing

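No paired analysis was possible because each group had 1 library and the labels carry no replicate numbers. A fit of genotype and drug without their interaction, which would leave 1 residual degree of freedom, was not run. Without drug, the 2 genes at least 1.5-fold higher in the knockout became 0 with a pseudocount of 5 (1.85% of measured genes passed) or under a 2-fold rule (1.19%), and 1 with a mean filter of 5 FPKM (3.36%), which leaves 4 of the 6 genes and removes Exo1. With values rescaled to the same sum, the median log2 ratio of the 6 genes was 0.52 without drug and 0.36 with drug, against 0.36 and 0.22 as deposited, and 1 gene instead of 0 passed 1.5-fold with drug, against 5.88% of measured genes. No median and no ratio of a single gene changed sign under the pseudocounts, scalings or authors' fold changes tried; of 120 ratios of single genes under those settings, 12 moved by more than the counting interval. Depth limits the differences that can be seen to about the width of those intervals, and the spread between animals is unknown.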
